A study of Chlamydomonas reinhardtii with 24 samples.

Results

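The genes described here are those of the green alga Chlamydomonas reinhardtii whose transcripts were higher after 1 h of UV-B both in a strain mutated in the UV-B photoreceptor UVR8 and in the wild type. Of 14621 genes in the count table, 12282 had a mean level of 2 CPM or more (CPM, the count scaled by its column total) over all libraries, and 27 of these met the rule. In uvr8 and in WT each, the log2 ratio of the UV-B mean to the no-UV-B mean, with 0.5 CPM added to both, had to be 0.6 or more, and every UV-B library had to lie above every no-UV-B library. The members were thus chosen by their CPM in the uvr8 and WT libraries, and those values are given below as a description, with no test. The rule also sets aside the gene of the transcription factor HY5 (Cre06.g310500), which did not meet it in these counts, since its uvr8 UV-B libraries were at 5.29, 3.43 and 13.1 CPM and its uvr8 no-UV-B libraries at 5.35, 2.00 and 2.005 CPM.

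Messenger RNA was sequenced from 24 libraries in 8 groups of 3. The mutant strains uvr8, co and hy5 carry library-style insertion names, 1 strain for each gene, and the labels give CC5325 as the background that they share with WT. Cells of each strain were pre-grown on acetate, moved to minimal medium, and then given white light at 20 µmol photons m-2 s-1 for 1 h, either with narrowband UV-B at 0.2 mW per square centimetre (uvr8, co, hy5 and WT with UV-B) or behind a filter that removed the UV-B (the same strains without it). With 1 strain a gene, an effect of the mutated gene and one of the strain cannot be told apart, and, since nothing in the labels ties the 3 libraries of a group to different cultures, the spread behind each p-value may be technical.

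UVR8 is a dimer that falls apart when its tryptophans absorb UV-B, and the monomer then binds the COP1-SPA1 ubiquitin ligase and releases transcription factors that the ligase would hold down. In Chlamydomonas this route raises genes of photoprotection, and CO, a CONSTANS-like regulator, and HY5, a bZIP factor, act downstream. UV-B also reaches cells without this receptor, through damage to DNA and to photosystem II and through reactive oxygen species, and plants are known to have transcript responses to such stress. The comparisons below ask how far the 27 genes were also raised in co and hy5, whose libraries played no part in the fold and overlap criteria.

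Library totals ran from 19267716 to 27686700 counts. The mutated gene was checked first. CO (Cre06.g278159) was at 8.19 to 11.75 CPM in the 6 libraries of co and at 497 to 764 CPM in those of uvr8, hy5 and WT, and HY5 was at 0.711 to 1.19 CPM in hy5 and at 6.375 to 151.9 CPM in WT. UVR8 (Cre05.g230600) was at 23.0 to 28.5 CPM in the 6 uvr8 libraries and at 22.95 to 41.3 CPM in WT, ranges that overlap, so its transcript does not check the uvr8 label. Of 6 genes known to depend on UVR8 signalling (LHL4, LHCSR1, LHCSR3A, LHCSR3B, PSBS1 and PSBS2), 6 met the fold and overlap criteria in WT and 0 in uvr8. Values in CPM are averages over all cells of a culture, so more cells with a transcript and more transcript per cell cannot be told apart.

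The criteria were met by 296 genes in uvr8 (2.41% of 12282) and by 814 in WT (6.63%), so the members were 9.12% of the uvr8 rises and 3.32% of the WT rises. The background shares are 6.63% of all genes in WT and 2.41% in uvr8, and since the rule fixed this count nothing is read from it. The mirrored rule, for falls in both strains, found 15 genes. A fall in uvr8 with a rise in WT was seen in 6 genes and a rise in uvr8 with a fall in WT in 11. The scaling bears on all of these counts. With column totals the median change of all genes was 0.07 in uvr8 and -0.24 in WT on the log2 scale, and with TMM scaling, which aligns the bulk of the genes, it was 0.00 and 0.01. With TMM-scaled CPM, 224 genes met the criteria for a rise and 129 those for a fall in uvr8, and 1277 and 763 did so in WT. With column totals, 88 genes (0.716%) met those for a fall in uvr8 and 1522 (12.4%) in WT.

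The mean level of the members over the 24 libraries had a median of 9.498 CPM, beside 15.7 CPM for all 12282 genes, with 14 members under 10 CPM, 12 between 10 and 100 CPM and 1, Cre13.g579450, at 441.5 CPM. The lowest count of any member in any library was 12 reads, in Cre13.g801530. In uvr8 the log2 change of the members was 0.61 to 2.94 with a median of 0.83, and in WT it was 0.61 to 3.40 with a median of 1.09. The change was larger in uvr8 for 7 members and larger in WT for 20. Just inside the threshold lay Cre06.g304950 (0.61 in uvr8 and 0.68 in WT), Cre14.g801648 (0.79 and 0.61) and Cre13.g562550 (0.63 and 0.66). Just outside, with no overlap in either strain but a uvr8 change under 0.6, lay Cre02.g091400 (just under 0.6 in uvr8 and 1.60 in WT), Cre14.g609030 (0.59 and 0.83) and Cre06.g263650 (0.58 and 0.74).

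None of the 27 has a gene name in the count table or in the RefSeq gene table of assembly v5.5, which held 25 of them, all as protein-coding genes, and gives 0 symbols. None was among 31 genes with a known name and role that were listed for UV-B signalling, UVR8 targets, light harvesting, defence against reactive oxygen species, chaperones and photoreceptors. Of these 31, 2 met the criteria in uvr8 and 12 in WT, beside 2.41% and 6.63% of all 12282 genes. The 2 in uvr8 were LHCBM9, an antenna protein gene of photosystem II, with a log2 change of 0.97 in uvr8 and -0.32 in WT, and CAT1, for catalase, with 0.87 in uvr8 and -0.16 in WT. GPX5, a glutathione peroxidase gene that responds to singlet oxygen, changed by -0.01 in uvr8 and by 2.16 in WT. Of 9 chaperone and plastid stress genes 0 met the criteria for a rise in uvr8 or in WT, and the cytosolic chaperone HSP70A changed by -1.31 in uvr8, -1.10 in co, -1.17 in hy5 and -1.26 in WT.

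The members lay on 12 chromosomes by their identifiers, with 5 on chromosome 6 and 4 on chromosome 8. In the RefSeq gene order, no member stood directly beside another. The nearest pairs were Cre08.g384500 with Cre08.g384750 and Cre17.g745497 with Cre17.g745797, each 6 genes apart. Of the 35 genes directly beside a member with a mean of 2 CPM or more, 2 met the criteria in uvr8 and 3 in WT. The shares over all 12282 genes were 2.41% and 6.63%, and nothing is read from these small counts. One of them, Cre17.g697050, next to the member Cre17.g697000, changed by 0.32 in uvr8 and by 3.40 in WT. The strand setting of the counting is not given in the sources used here, so reads of overlapping neighbours cannot be told apart.

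In hy5 and co, UV-B raised only some of the members past the test, and a member that did not pass is not shown to be unchanged. A fit of the 12 hy5 and co libraries with edgeR's quasi-likelihood test and Benjamini-Hochberg adjustment called 8 of 27 members as raised in hy5 and 3 of 27 in co at an adjusted p under 0.05, over 13498 genes tested, of which 6.54% and 1.47% were called as raised. No member fell with edgeR or with DESeq2 (2.56% of all genes fell in hy5 and 0.0222% in co with edgeR). Without adjustment, 16 members in hy5 (59.3%) and 9 in co (33.3%) had a p under 0.05, beside 22.2% and 9.03% of all genes. With DESeq2, 12 members were called as raised in hy5 and 4 in co, beside 1169 and 363 of all genes, against 883 and 199 with edgeR. The median log2 fold change of the members was 0.79 in hy5 and 0.64 in co, beside -0.04 and -0.01 over all genes tested, and all 27 fold changes were above 0 in both strains. By the ratio of CPM means, 4968 of the 12282 genes were above 0 in hy5 and 5823 in co. Without the hy5 no-UV-B library 1 the hy5 count was 14, beside 945 of all genes. Without hy5 UV-B library 2 or hy5 no-UV-B library 2 it was 5, beside 670 and 728. Without hy5 no-UV-B library 3 it was 4, beside 623. The co count was 3 whichever single library was left out, beside 93 to 198 of all genes. With all libraries of title number 1 left out, 17 were called in hy5 and 4 in co, without those of number 2 it was 3 and 1, and without those of number 3 it was 3 and 0. The counts over all genes moved with these, at 1362, 489 and 276 raised in hy5 and 238, 51 and 0 in co without numbers 1, 2 and 3.

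**Figure D1:**
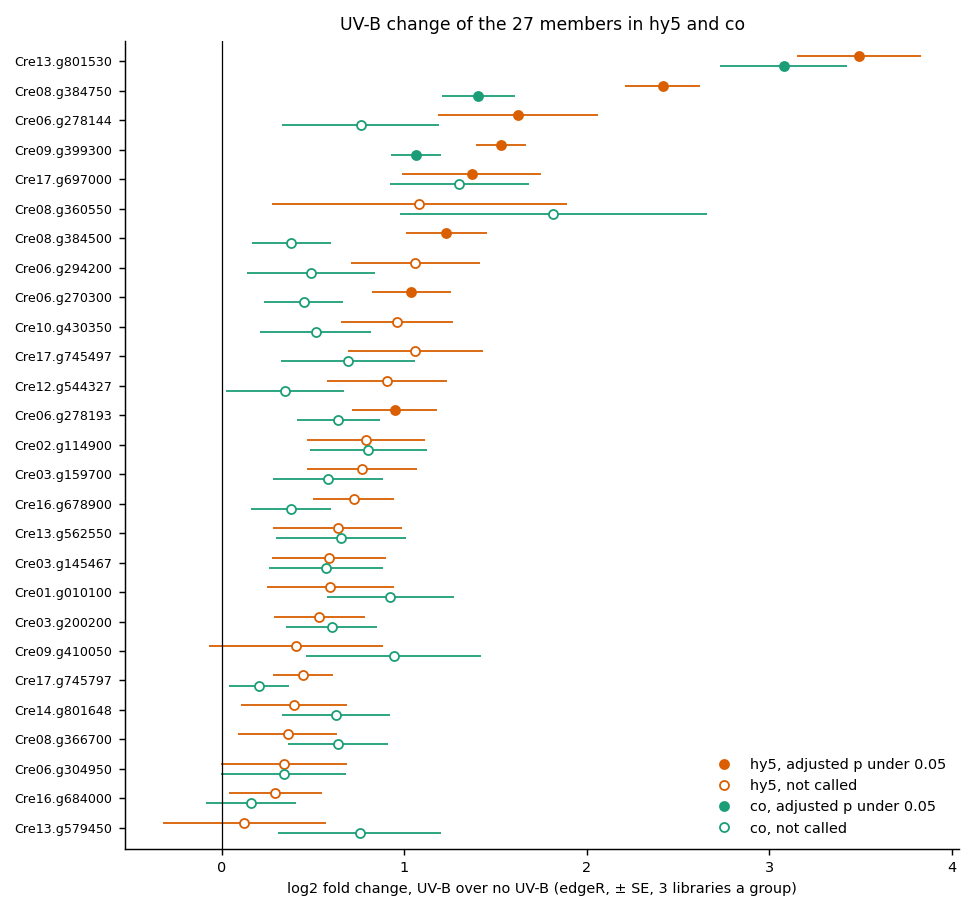
Log2 fold change of UV-B over no UV-B (x axis) for each of the 27 members (y axis) in hy5 and co, from edgeR with SE bars and 3 libraries a group; filled points have an adjusted p under 0.05. All points lie above 0, and 8 are filled for hy5 and 3 for co.

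The members raised in both hy5 and co were Cre08.g384750, Cre09.g399300 and Cre13.g801530. Cre08.g384750 had 143, 166 and 184 CPM with UV-B and 40.3, 26.0 and 28.3 CPM without it in hy5, and 89.5, 88.1 and 117 CPM with and 35.1, 36.4 and 39.8 CPM without it in co. Its groups lay far apart in both strains, at a log2 fold change of 2.41 (SE 0.21, adjusted p = 1.27e-05, edgeR) in hy5 and 1.41 (SE 0.20, adjusted p = 0.00431) in co. In uvr8 its UV-B libraries had 26.6, 36.6 and 48.3 CPM and its no-UV-B libraries 25.8, 21.3 and 22.9 CPM, and in WT 105, 146 and 198 CPM and 27.3, 32.0 and 32.0 CPM. The gap between the lowest UV-B and the highest no-UV-B library was thus under 1 CPM in uvr8 and wide in hy5, co and WT.

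Cre09.g399300 had 23.4, 29.3 and 25.3 CPM with UV-B and 9.77, 10.4 and 7.73 CPM without it in hy5, and 21.9, 26.1 and 25.6 CPM with and 11.0, 11.96 and 12.25 CPM without it in co. The libraries of each group were tightly placed, and the log2 fold changes were 1.53 (SE 0.14, adjusted p = 1.92e-05, edgeR) in hy5 and 1.07 (SE 0.14, adjusted p = 0.00221) in co. In uvr8 it had 9.42, 9.36 and 12.8 CPM with UV-B and 8.57, 5.87 and 5.38 CPM without it, and in WT 32.3, 31.7 and 28.7 CPM with and 11.9, 11.6 and 12.4 CPM without it. Its uvr8 UV-B libraries stayed near the no-UV-B level of the other strains.

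Cre13.g801530 had the largest change in hy5 and co. It had 20.8, 30.5 and 26.5 CPM with UV-B and 2.04, 1.59 and 3.48 CPM without it in hy5, and 6.285, 10.3 and 12.3 CPM with and 1.15, 0.816 and 1.41 CPM without it in co. The log2 fold changes were 3.49 (SE 0.34, adjusted p = 3.53e-05, edgeR) in hy5 and 3.08 (SE 0.35, adjusted p = 0.00129) in co. In uvr8 its UV-B libraries had 2.42, 3.20 and 5.29 CPM and its no-UV-B libraries 1.14, 0.479 and 2.35 CPM. The lowest UV-B and the highest no-UV-B library in uvr8 were close together. In WT the UV-B libraries had 5.94, 38.0 and 44.9 CPM, with library 1 far below the others, and the no-UV-B libraries 2.04, 1.27 and 3.775 CPM. These 3 genes stayed called in both strains whichever of the 12 libraries was dropped (adjusted p = 4.12e-05 to 0.000374 in hy5 and 0.00101 to 0.0116 in co for Cre13.g801530). In co, 0 of the 3 stayed called without all libraries of title number 3 (adjusted p = 0.18 to 0.465, edgeR). Without those of number 2, Cre08.g384750 (0.07) and Cre09.g399300 (0.104) were lost in co.

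A further 5 members were raised in hy5 and did not pass in co. All 5 hy5 calls were lost without title number 2 (adjusted p = 0.104 to 0.309, edgeR) and without title number 3 (0.227 to 0.558). Cre08.g384500 had 3.56, 4.50 and 4.83 CPM with UV-B and 2.18, 1.90 and 1.56 CPM without it in hy5 (log2 fold change 1.23, SE 0.22, adjusted p = 0.00424, edgeR), and 3.29, 3.08 and 3.89 CPM with and 2.96, 2.45 and 2.47 CPM without it in co (0.38, SE 0.22, adjusted p = 0.697). Its groups did not overlap in either strain. Cre06.g270300 had 8.295, 13.3 and 12.2 CPM with UV-B and 6.395, 5.91 and 4.515 CPM without it in hy5 (log2 fold change 1.04, SE 0.22, adjusted p = 0.0104, edgeR). The call was lost without hy5 no-UV-B library 3 (adjusted p = 0.0654). Cre06.g278193 had 5.25, 5.63 and 4.74 CPM with UV-B and 2.80, 2.34 and 3.22 CPM without it in hy5 (log2 fold change 0.95, SE 0.23, adjusted p = 0.0249, edgeR). That call was lost without any 1 of hy5 UV-B libraries 1 and 2 and hy5 no-UV-B libraries 2 and 3 (adjusted p = 0.0519 to 0.107), and in the fits of all 24 libraries or of hy5 alone (0.053 to 0.0705).

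The other 2 had weaker calls. Cre06.g278144 had 6.53, 10.8 and 13.7 CPM with UV-B and 5.02, 2.56 and 2.595 CPM without it in hy5 (log2 fold change 1.63, SE 0.44, adjusted p = 0.0394, edgeR). The call was lost without hy5 UV-B library 2 or 3, hy5 no-UV-B library 2 or 3 or co no-UV-B library 1 or 3 (adjusted p = 0.0514 to 0.176), and with scaling by column totals (0.0527). Cre17.g697000 had 13.2, 18.3 and 26.1 CPM with UV-B and 10.75, 5.16 and 6.75 CPM without it in hy5 (log2 fold change 1.37, SE 0.38, adjusted p = 0.0448, edgeR). It was lost without those same hy5 libraries or without any 1 of the 3 co no-UV-B libraries (adjusted p = 0.0542 to 0.181), and with column totals or the hy5 libraries alone (0.0574 to 0.0608). In co it had a change of 1.302 (SE 0.38, adjusted p = 0.194), which passed with DESeq2 (adjusted p = 0.0388).

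**Figure D2:**
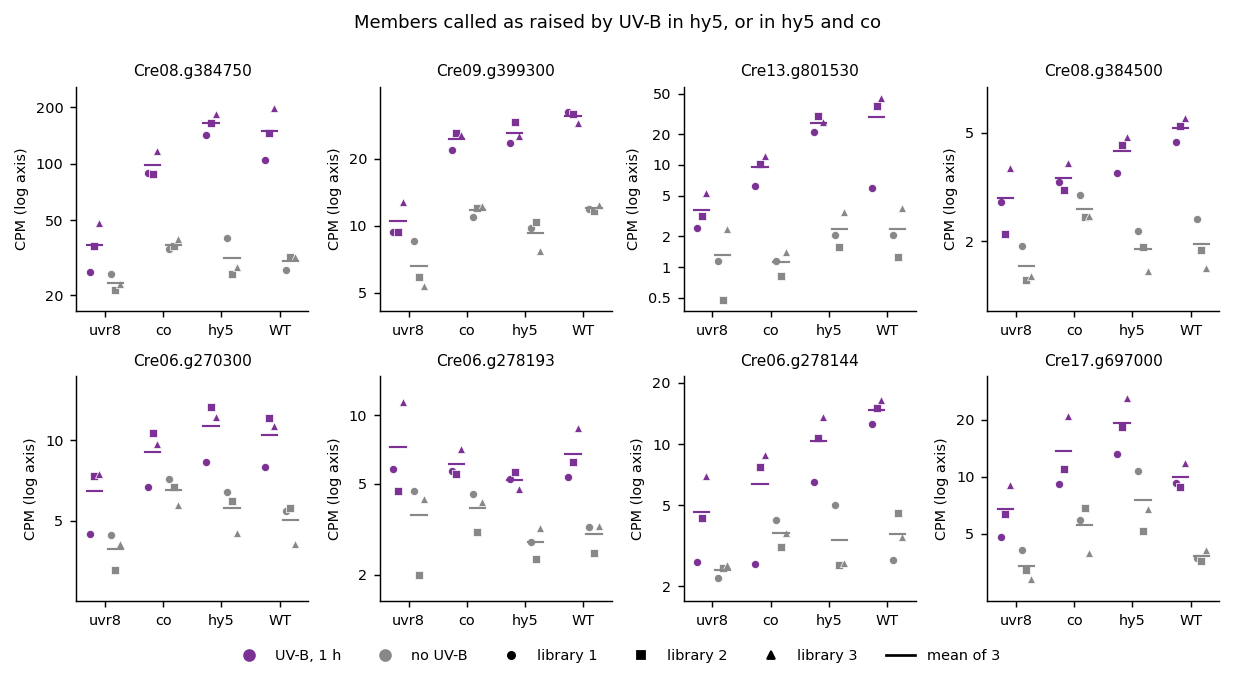
Level in CPM (y axis, log scale) of the 8 members called as raised by UV-B in hy5, of which the first 3 were also called in co. Strains run along the x axis, with UV-B libraries left of no-UV-B libraries in each, a symbol for each title number and a line at the mean of 3 libraries; the uvr8 groups lie closer together than the WT groups for Cre08.g384750, Cre09.g399300 and Cre13.g801530.

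The size of the UV-B change was compared between hy5 and co within the same fit. With edgeR, 0 of 27 members differed (0.948% of all genes did), 3 had an unadjusted p under 0.05 (11.1%, beside 5.09% of all genes), and DESeq2 called 1, Cre08.g384750, beside 2.06% of all genes. Its change was larger in hy5 than in co by 1.01 on the log2 scale (SE 0.28, adjusted p = 0.204, edgeR, and adjusted p = 0.0369 with DESeq2), and without hy5 no-UV-B library 1 edgeR called it too (1.3, adjusted p = 0.0333). The other 2 with an unadjusted p under 0.05 were Cre08.g384500, which differed by 0.85 (SE 0.31, adjusted p = 0.591), and Cre09.g399300, by 0.46 (SE 0.19, adjusted p = 0.818). Without UV-B, 0 of 27 members differed between hy5 and co with edgeR (0.0963% of all genes did) and 0 with DESeq2 (0.92% of all genes), and 3 had an unadjusted p under 0.05 (11.1%, beside 6.4% of all genes). The median difference of the members in that state was 0.04.

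Of the 5 members with the largest changes in uvr8, Cre13.g801530 (1.18 in uvr8) was called in hy5 and co, and the other 4 in neither. Cre08.g360550 had the largest change, 2.94 in uvr8 and 2.05 in WT, with 6.42, 9.915 and 29.7 CPM with UV-B and 1.96, 1.08 and 1.66 CPM without it in uvr8, and 10.1, 7.55 and 16.8 CPM with and 2.58, 1.90 and 2.73 CPM without it in WT. In hy5 it had 5.25, 11.6 and 23.55 CPM with UV-B and 13.7, 1.545 and 3.74 CPM without it, and in co 4.37, 9.28 and 15.8 CPM with and 4.25, 0.932 and 2.94 CPM without it. The hy5 groups overlapped through no-UV-B library 1, and the co groups were barely apart. Its log2 fold changes were 1.08 (SE 0.81, adjusted p = 0.492, edgeR) in hy5 and 1.82 (SE 0.84, adjusted p = 0.567) in co. Without all libraries of title number 1 the hy5 change was 2.82 (adjusted p = 0.032, edgeR). Without those of number 2 it was 0.73 and without those of number 3 it was 0.14, and neither passed. With single libraries left out the hy5 change ran from 0.42, without hy5 UV-B library 3, to 2.44, without hy5 no-UV-B library 1. None of these single-library fits called it (adjusted p = 0.0887 to 0.89, edgeR).

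Cre09.g410050 had 29.5, 43.8 and 90.8 CPM with UV-B and 19.7, 19.2 and 16.4 CPM without it in uvr8, and 65.8, 59.4 and 100.6 CPM with and 38.6, 43.1 and 41.5 CPM without it in WT. In hy5 it had 59.5, 48.1 and 110.9 CPM with UV-B and 100.9, 30.6 and 36.02 CPM without it (log2 fold change 0.41, SE 0.48, adjusted p = 0.695, edgeR). The high no-UV-B value was again that of library 1. The hy5 change was 1.24 without that library (adjusted p = 0.0776, edgeR), 1.34 without all libraries of title number 1 (adjusted p = 0.0426) and -0.01 without hy5 UV-B library 3. In co it was 0.94 (SE 0.48, adjusted p = 0.631). Cre01.g010100 had 11.75, 19.55 and 21.5 CPM with UV-B and 6.12, 8.55 and 8.06 CPM without it in uvr8, and changed by 0.60 (SE 0.35, adjusted p = 0.359, edgeR) in hy5 and 0.92 (SE 0.35, adjusted p = 0.393) in co.

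Cre13.g579450, the most abundant member, had 314.5, 469 and 978.5 CPM with UV-B and 296.5, 229.5 and 280.1 CPM without it in uvr8, and 284.5, 561 and 888 CPM with and 47.1, 199 and 187 CPM without it in WT. Its WT no-UV-B library 1 lay far below the other 2. In hy5 it had 258, 397.5 and 749.7 CPM with UV-B and 536.5, 311 and 463 CPM without it, and in co 314, 587.5 and 1088 CPM with and 473, 332 and 350.3 CPM without it. The groups overlapped in both strains, with log2 fold changes of 0.12 (SE 0.44, adjusted p = 0.919, edgeR) in hy5 and 0.76 (SE 0.45, adjusted p = 0.711) in co. The hy5 change took the other sign without hy5 UV-B library 3 (-0.36) or hy5 no-UV-B library 2 (-0.09).

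**Figure D3:**
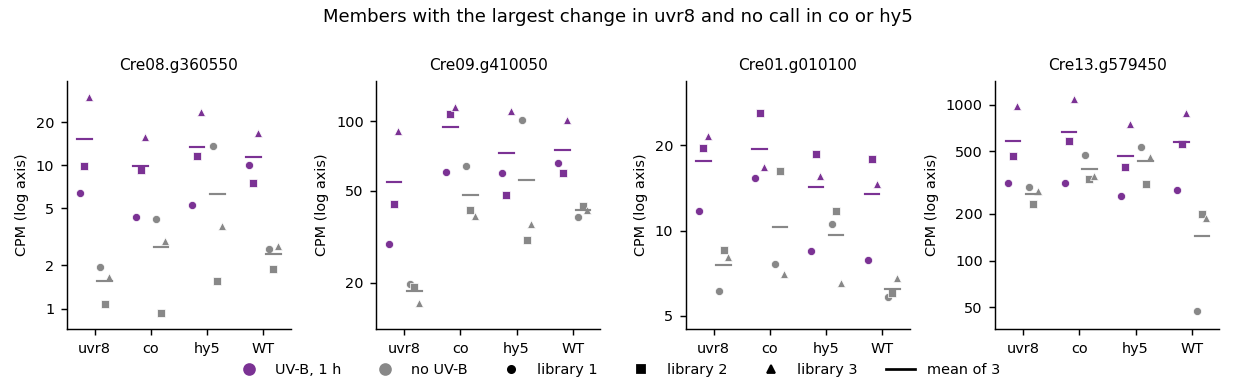
Level in CPM (y axis, log scale) of the 4 members with the largest log2 change in uvr8 among those not called in hy5 or co. Strains run along the x axis with UV-B left of no UV-B, symbols give the title number and lines the mean of 3 libraries; for Cre08.g360550, Cre09.g410050 and Cre13.g579450 the hy5 no-UV-B library 1 lies above hy5 UV-B libraries.

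The 19 members that edgeR called in neither strain had log2 fold changes of 0.12 to 1.08 in hy5 (adjusted p = 0.0684 to 0.919, edgeR) and of 0.16 to 1.82 in co (adjusted p = 0.393 to 0.931). The smallest of those p-values in hy5 belonged to Cre16.g678900, with 121.4, 145.6 and 108.3 CPM with UV-B and 100.9, 66.3 and 66.1 CPM without it in hy5 (0.72, SE 0.22), which passed with DESeq2 (adjusted p = 0.0235). Cre12.g544327 and Cre17.g745497 changed by 0.91 (SE 0.33, adjusted p = 0.123) and 1.06 (SE 0.37, adjusted p = 0.107) in hy5. Cre12.g544327 passed without hy5 no-UV-B library 1 (1.28, adjusted p = 0.0399) and Cre17.g745497 with DESeq2 (adjusted p = 0.0417). Cre02.g114900 changed by 0.79 (SE 0.32, adjusted p = 0.172) in hy5 and 0.80 (SE 0.32, adjusted p = 0.449) in co, and Cre03.g200200 by 0.53 (SE 0.25, adjusted p = 0.237) and 0.60 (SE 0.25, adjusted p = 0.48). The 3 members nearest the fold threshold, Cre06.g304950, Cre13.g562550 and Cre14.g801648, changed by 0.34, 0.64 and 0.40 in hy5 and by 0.34, 0.65 and 0.63 in co.

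By the fold and overlap criteria of the rule, 14 of 27 members (51.9%) met those for a rise in hy5 and 7 (25.9%) in co, beside 7.03% and 3.44% of the 12282 genes. They were met in both strains by 4 members and in neither by 10. Those for a fall were met by 0 members in hy5 or co, beside 5.65% and 0.57% of all genes. Genes that met the criteria in WT but not in uvr8 did so more widely, 84.0% of 786 in hy5 and 45.2% in co. Genes that met them in uvr8 but not in WT did so at 1.86% of 269 in hy5 and 3.35% in co, near or under the background. The median log2 change in hy5 was 0.72 for the members, 0.07 for the genes met in uvr8 alone and 1.27 for those met in WT alone, and in co it was 0.59, 0.33 and 0.61. With edgeR the shares called as raised were 29.6%, 1.49% and 79.9% in hy5 and 11.1%, 0% and 24.4% in co for the same 3 sets. The members thus lay between these sets in hy5, and no test of the difference between sets was made. The sets also differed in level, with a median of 9.498 CPM for the members, 11.67 CPM for uvr8 alone and 23.1 CPM for WT alone. The median WT change was 1.09 for the members and 1.29 for WT alone. The part of level and of size of change in these shares was not tested.

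**Figure D4:**
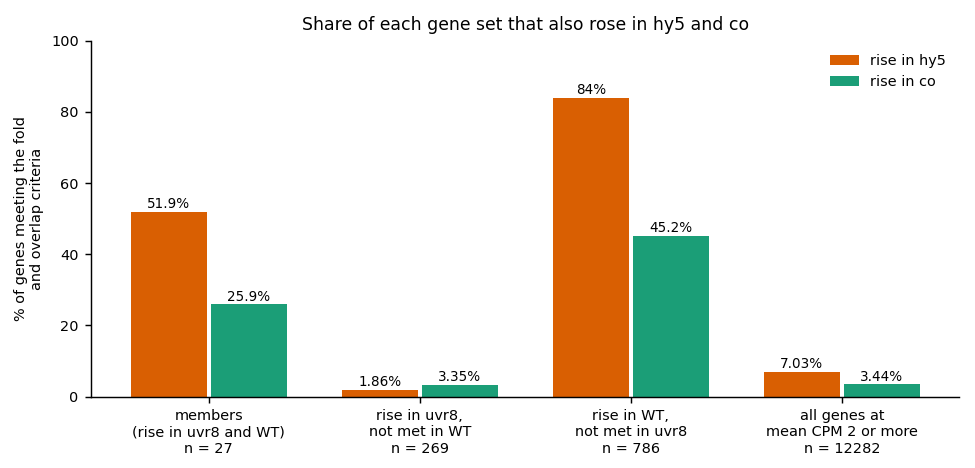
Share of genes in percent (y axis, from 0) that met the fold and overlap criteria in hy5 and in co, for the 27 members, the 269 genes that met them in uvr8 but not in WT, the 786 that met them in WT but not in uvr8, and all 12282 genes. Members were at 51.9% in hy5 and 25.9% in co, between the uvr8 set and the WT set.

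Libraries of title number 1 stood apart with UV-B in every strain, for these genes and over all genes, and less clearly without UV-B. In each group libraries 2 and 3 were the least apart over all genes, by the chi-square for each degree of freedom. In hy5 without UV-B their value was 21.3, beside 119 and 66.3 for the pairs with library 1. Without UV-B the margin was narrow in uvr8, at 36.7 beside 41.1, and in co, at 34.2 beside 40.2. There libraries 1 and 2 were the furthest apart (126 in uvr8 and 96.1 in co). The uvr8 and WT values of the members are those the rule used. Numbers 1 and 3 did not pair UV-B with no-UV-B libraries in hy5 or co. By deviations from group means, UV-B library 1 correlated more with no-UV-B library 3 (0.258 in hy5, 0.421 in co) than with no-UV-B library 1 (0.064, 0.0978). UV-B library 3 correlated more with no-UV-B library 1 (0.524, 0.379) than with no-UV-B library 3 (-0.354, -0.254). UV-B library 2 correlated most with no-UV-B library 2 (0.661, 0.575). The changes that follow match libraries by title only and are not shown to be those of 1 culture. Between libraries of the same number, the median log2 change of the 27 members was 0.21, 0.92 and 1.29 for numbers 1, 2 and 3 in uvr8, and 0.04, 0.76 and 0.91 in co. It was 0.11, 1.10 and 1.19 in hy5 and 0.65, 1.40 and 1.36 in WT. Over all 12282 genes the same medians ran from -0.10 to 0.10 in uvr8, co and hy5 and from -0.34 to -0.15 in WT. In number 1 of hy5 and of co, 16 of 27 members had more CPM with UV-B than without, and 26 or 27 in numbers 2 and 3. The median change of all genes in number 1 was -0.068 in hy5 and -0.011 in co. Number 1 held the lowest UV-B value for 22 of 27 members in hy5 and 18 in co (46.9% and 50% of all genes) and the highest no-UV-B value for 21 in hy5 and 18 in co (35.8% and 26% of all genes).

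**Figure D5:**
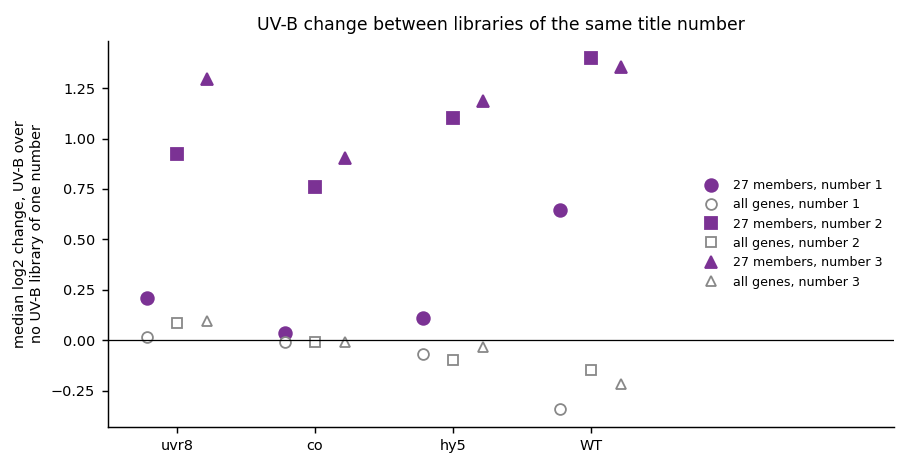
Median log2 change between the UV-B and the no-UV-B library of the same title number (y axis) in each strain (x axis), filled for the 27 members and open for all 12282 genes, with a symbol for each number. Number 1 of the members lies at 0.04 to 0.65, below numbers 2 and 3 in all 4 strains. Numbers 1 and 3 did not pair UV-B with no-UV-B libraries in hy5 or co.

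The labels do not say what a title number stands for, and its part in the results was not tested. Without number 1, the rule found 328 genes, 26 of them among the 27, against 51 without number 2 (21 shared) and 18 without number 3 (10 shared). Without number 1 the criteria were met by 24 of 27 members in hy5 and 23 in co, beside 11.9% and 8.8% of all genes, and without number 2 or 3 by 12 and 13 in hy5 and 7 and 7 in co, beside 7.72% and 7.09% in hy5 and 5.23% and 3.19% in co. The uvr8 and WT libraries left in those counts are the ones that chose the members. The hy5 and co libraries took no part in the fold and overlap criteria, but they count in the mean level. They also share the title numbers, and number 1 held the lowest UV-B value for 22 members in uvr8 and 21 in WT (51.6% and 63.2% of all genes). How far a pattern of the numbers carries over from uvr8 and WT to hy5 and co was not tested.

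The scaling also decided which genes were members. With TMM-scaled CPM in place of column totals, 30 genes met the rule and 18 of the 27 were among them. All 9 that left did so in uvr8, 2 through the fold, 4 through an overlap and 3 through both, and 0 in WT. Of the 8 members called in hy5, 5 were among those 9, namely Cre08.g384750, Cre09.g399300, Cre08.g384500, Cre06.g270300 and Cre06.g278193. Of the 3 called in both hy5 and co, Cre13.g801530 alone stayed, with a TMM-scaled log2 change of 1.11 in uvr8, against 0.57 for Cre08.g384750 and 0.56 for Cre09.g399300. Cre08.g360550, Cre09.g410050, Cre13.g579450 and Cre01.g010100 stayed, with 2.84, 1.45, 1.03 and 1.09 in uvr8.

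Levels across strains are given as a description, since the rule favours genes that are low without UV-B in uvr8 and WT. With UV-B the median level of the members was 10.3 CPM in uvr8, 13.01 CPM in co, 16.2 CPM in hy5 and 12.75 CPM in WT, and without UV-B it was 5.51, 8.41, 8.04 and 5.56 CPM. With UV-B the mean was lowest in uvr8 for 14 of 27 members, and with TMM-scaled CPM for 16, while WT was the highest strain for 10 with column totals and for 23 with TMM. Without UV-B, uvr8 was the lowest for 14 with column totals and for 16 with TMM. The summed level of the 27 was 632 to 1608 CPM with and 425 to 568 CPM without UV-B in uvr8, and 831.5 to 1768 CPM with and 359 to 508 CPM without it in WT. In hy5 it was 887 to 1600 CPM with and 589 to 1059 CPM without UV-B, and in co 780.3 to 1790.0 CPM with and 654 to 869 CPM without it, so that the groups overlapped in both of these strains. Without Cre13.g579450 the sums did not overlap, at 629.5 to 849.8 CPM with and 277.9 to 522.9 CPM without UV-B in hy5 and at 466.3 to 701.9 CPM with and 305.2 to 396.0 CPM without it in co.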

How the data were processed

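The authors deposited raw read counts per gene, whole numbers with 1 column per library and no normalization. The submitters' processing notes name STAR 2.7.10b and HTSeq 0.11.3, beside bcl2fastq 2.20.0 and edgeR 3.42.4, with no role. Which build, strand setting and rule for multiply matching reads were used is not given in the sources here. Identifiers are printed without the suffix that all of them share. Groups and title numbers came from the sample titles. No 2 libraries of a group were alike within counting noise (24 pairs, with a chi-square of 21.3 to 131 for each degree of freedom), and each held 19267716 to 27686700 counts.

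The rule was applied to counts divided by column totals. The 12 hy5 and co libraries were scaled by TMM (factors 0.907 to 1.1), filtered by edgeR's filterByExpr (minimum count 10, minimum total 15), fitted with 1 mean per group and tested with edgeR 4.0.16 (quasi-likelihood F test, limma 3.58.1, R 4.3.3). Benjamini-Hochberg adjustment ran over 13498 genes, and the SE is the fold change divided by the square root of F. The uvr8 and WT libraries were left out of this fit because the rule requires low spread in them. DESeq2 1.42.0, other scalings, no filter, all 24 libraries, single strains, a replicate block and left-out libraries were alternatives. Members and lists were chosen with earlier results of these data known.

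Members were named by rank of p-value, of the smaller of the uvr8 and WT changes and of level, and by nearness to the threshold. Cre06.g270300, Cre06.g278144 and Cre08.g384500 (called in hy5), Cre09.g410050 (large in uvr8), the genes beside members and the pairs near each other were chosen after their values were seen. Gene names of the 31 listed genes were matched by locus and could not be checked against RefSeq. Title numbers paired hy5 with co libraries without UV-B (correlations of deviations from group means 0.832, 0.818 and 0.249), where the block left the count at 0. They did not pair UV-B with no-UV-B libraries in hy5 or co. Counts were simulated with the means and spread of the 12 fitted libraries and with no pattern of title numbers. The test was tried on them, with 100 genes raised 2-fold and 100 raised 4-fold by UV-B in co. It called 31 and 84 of them, with 2 false calls, so many changes of 2-fold would be missed. Sequences were not used here.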

Additional observations from a re-analysis of the deposited data

How the results depend on the processing

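The count of genes meeting the rule was 6 with a fold of 1 on the log2 scale, and 15, 6 and 11 for falls in both strains, a fall in uvr8 with a rise in WT and a rise in uvr8 with a fall in WT. Leaving out a title number gave 18 to 328. Members meeting the criteria numbered 12 to 24 in hy5 and 7 to 23 in co over left-out numbers, alternatives chosen after seeing the data.

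Members called as raised in hy5 numbered 3 to 17 with libraries or title numbers left out, and in co 0 to 4. The title numbers did not pair UV-B with no-UV-B libraries (correlations 0.064, 0.661 and -0.354 in hy5 and 0.0978, 0.575 and -0.254 in co). With the number as a replicate block 15 members were called in hy5, Cre12.g544327 (adjusted p = 0.0366) and Cre17.g745497 (adjusted p = 0.0189) among them, and 3 in co, and with all 24 libraries and the block, chosen after seeing the data, 15 and 5. Members whose effect differed between hy5 and co numbered 1 with DESeq2, 1 with all 24 libraries and the block, and 0 to 1 with libraries left out. Members that differed without UV-B numbered 0 in every fit, 0 to 0 with libraries left out. Over all genes, those raised in hy5 numbered 883. They numbered 1169 with DESeq2, 1299 with the block, 1440 with all 24 libraries and the block and 276 to 1362 with libraries left out. Those raised in co numbered 199. They numbered 363 with DESeq2, 292 with the block and 410 with all 24 libraries and the block. With the co libraries alone they numbered 79, and with libraries left out 0 to 238. The cause of these differences was not tested.

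Of the 40 changes of named members in hy5 and co, Cre13.g579450 in hy5 took the other sign without hy5 UV-B library 3 (-0.36), without hy5 no-UV-B library 2 (-0.09) and without title number 3 (-0.34), in a range of -0.362 to 0.65 with libraries left out. Cre09.g410050 in hy5 did so without hy5 UV-B library 3 (-0.00644) and without title number 3 (-0.249), in a range of -0.249 to 1.34. Over all alternatives, 852 values kept direction and side of the threshold, 39 lost a call, 24 gained one and 5 took the other sign. Of the 40 changes, 8 in hy5 and 3 in co were called in the main fit, and only these could lose a call. The 852 include uncalled changes that stayed uncalled.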
